A study of Bos taurus with 14 samples.

Results

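WNT proteins are secreted ligands, frizzled proteins (FZD) are the receptors that bind them at the cell surface, and LRP5 and LRP6 are the co-receptors that the beta-catenin branch of the pathway needs. Secreted frizzled-related proteins (SFRP) carry a frizzled-like domain and bind WNT ligands outside the cell, and Dickkopf proteins (DKK) act outside the cell too, several of them by binding LRP5 and LRP6. WNT signalling bears on whether pluripotent cells of early embryos self-renew or differentiate, and stem cells of the primed kind are often cultured with a WNT inhibitor. All gene symbols made of WNT, FZD, SFRP or DKK followed by a number and an optional letter were taken, with LRP5 and LRP6 added and numbered copies left out. This gave 39 genes (19 WNT, 10 FZD, 4 SFRP, 4 DKK and 2 LRP) of 23159 named features used from the files of the P10 and control libraries and 24616 in the files of the later passages.

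Total RNA of 14 cattle libraries was sequenced. The libraries are from CTFR-bESC lines A and B, blastocyst-derived embryonic stem cells sampled at P10 (2 libraries, 1 per line) and at later passages (P13, P23, P35 and P45 of line A, and P12, P24, P35 and P46 of line B), and from 2 controls, in vivo blastocysts (2 pools of 10 whole embryos) and skin fibroblasts (2 lines). The stem cells grew on mouse embryonic fibroblast feeders (MEFs) in a medium that held FGF2 at 20 ng/mL and IWR1 at 2.5 µM. IWR1 is a compound that inhibits tankyrases and so stabilises AXIN and dampens beta-catenin signalling. Each stem cell library, P10 and later alike, therefore comes from cells kept under a WNT pathway inhibitor, and no library of the same lines without it was analysed here. The labels name no genotype, breed or age for any group. Libraries of 1 line are serial samples of 1 culture, so p-values between passages measure the spread between those samples.

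Values are RPKM, reads per kilobase of gene scaled to the mapped reads of the library, and depth in reads is unknown. All 6 pluripotency markers listed in every file were at or above 1 RPKM in each of the 10 stem cell libraries, where they summed to between 523.5 and 683.9 RPKM, against 68.9 and 58.8 RPKM in blastocysts and 0.6 and 2.2 RPKM in fibroblasts. A list of 16 fibroblast and feeder markers summed to 542.5 RPKM in line B and 202.7 RPKM in line A at P10 and to between 444.7 and 792.2 RPKM in the later stem cells. The same list summed to 525.4 and 506.9 RPKM in the blastocyst pools, with 5 and 6 of the 16 listed at 0, and to 8993.8 and 10956.9 RPKM in fibroblasts. FN1, the fibronectin gene, alone gave 507.0 and 481.5 RPKM of the blastocyst sums. Without FN1 the list summed to 306.8 RPKM in line B and 157.3 RPKM in line A at P10, against 18.4 and 25.4 RPKM in blastocysts and 8645.4 and 10080.5 RPKM in fibroblasts. The 2 most abundant features held 65.8% and 64.0% of all RPKM in the blastocyst pools, against 2.1 to 3.4% elsewhere, so each blastocyst difference was also examined under other scalings. GAPDH, a gene used in nearly every cell, is listed at 0 in all 14 libraries, so a 0 can be a failed estimate and a gene without signal is only said to be listed at 0.

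The bovine stem cells combined abundant receptors and abundant SFRP antagonists with little ligand RNA. The 19 WNT genes together summed to between 5.78 and 11.8 RPKM across the 10 stem cell libraries, against 0.675 and 0.250 RPKM in blastocysts and 7.54 and 16.7 RPKM in fibroblasts. The 9 FZD genes listed in every file summed to between 161 and 218 RPKM in stem cells, against 2.36 and 4.83 RPKM in blastocysts and 35.0 and 42.3 RPKM in fibroblasts. The 4 SFRP genes summed to between 115 and 292 RPKM in stem cells, 0.112 and 0.690 RPKM in blastocysts, and 62.5 and 18.8 RPKM in fibroblasts. For receptors and for SFRP genes every stem cell library stood above every blastocyst pool and fibroblast line, whereas the ligand sums of stem cells and fibroblasts overlapped. The sum of the 4 DKK genes ran the other way against fibroblasts, with 14.2 to 28.5 RPKM in stem cells, 0.412 and 1.13 RPKM in blastocysts, and 97.3 and 291 RPKM in fibroblasts. DKK3 alone made up 82.28 to 98.52% of it in stem cells and 98.51 and 97.18% in fibroblasts. DKK1, DKK2 and DKK4 overlapped between stem cells and fibroblasts. Levels of the later stem cells stand in files of another feature list than those of the controls, so they are set beside the controls as levels. In bulk RNA, fewer cells of a type and less RNA per cell cannot be told apart.

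Of the 39 genes, 22 reached 1 RPKM in at least 2 of the 14 libraries: 4 WNT, all 10 FZD, all 4 SFRP, 2 DKK, and both LRP genes. The other 17 did not reach it in 2 libraries. DKK1, an inhibitor that binds LRP5 and LRP6, peaked at 1.32 RPKM in fibroblast line 2, and WNT7B peaked at 1.06 RPKM in line A at P13. The highest values of the rest were under 1 RPKM: WNT4 reached 0.945, WNT2B 0.899, WNT10B 0.817, WNT9A 0.706, WNT8A 0.515, WNT2 0.453, WNT8B 0.351, WNT11 0.328, WNT6 0.190, WNT10A 0.176, WNT3 0.174, WNT3A 0.111, WNT1 0.072, DKK4 0.058 and WNT9B 0.032 RPKM. WNT1, WNT3 and WNT3A, the ligands best known for driving beta-catenin signalling, were among the lowest.

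Among ligands, WNT5A and WNT5B, a pair of paralogs best known for signalling without beta-catenin, were the leading ones in every stem cell and fibroblast library except line B at P35, where WNT16 exceeded WNT5B. WNT5A stood at 3.51 RPKM in line B and 1.65 RPKM in line A at P10, 0.062 RPKM and listed at 0 in the blastocyst pools, and 2.26 and 11.3 RPKM in fibroblast lines 1 and 2. In the later stem cells WNT5A ran from 1.41 to 4.56 RPKM with a median of 2.31 RPKM. Stem cells and fibroblasts overlapped, and the fibroblast lines lay farther from each other than the stem cell lines did. WNT5B stood at 2.84 RPKM in line B and 1.41 RPKM in line A at P10, 0.048 RPKM and listed at 0 in blastocysts, and 2.61 and 4.03 RPKM in fibroblasts. Its later stem cell values ran from 1.84 to 3.64 RPKM with a median of 2.25 RPKM, so it too overlapped between stem cells and fibroblasts.

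WNT16 and WNT7A, a ligand known from patterning of the limb and from neurons, were detected in the stem cells at low levels. WNT16 stood at 0.779 RPKM in line B and 1.36 RPKM in line A at P10 and at 1.12 to 1.96 RPKM (median 1.37) later, against 0.020 and 0.039 RPKM in blastocysts and 0.021 RPKM and listed at 0 in fibroblasts. WNT7A stood at 0.329 RPKM in line B and 0.326 RPKM in line A at P10 and at 0.499 to 1.32 RPKM (median 0.830) later, and is listed at 0 in both controls. For both genes every stem cell library lay above every control, but at no more than 1.96 RPKM, and neither passed the level filter of the comparison of P10 stem cells with the controls.

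The fibroblast and feeder list was lowest in line A at P10, and so was the WNT sum of the stem cells, while both were higher in line B at P10. WLS, the carrier that brings WNT proteins to the cell surface, showed the same order at P10, with 13.0 RPKM in line B and 1.46 RPKM in line A. Their part in the ligand levels was not tested.

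FZD2, FZD7 and FZD5 dominated the receptors of the stem cells. Together they held 80.3 to 86.37% of the RPKM of the 9 FZD genes in the 10 stem cell libraries, against 17.61 and 10.67% in blastocysts and 10.05 and 6.16% in fibroblasts. FZD2 stood at 53.5 RPKM in line B and 36.8 RPKM in line A at P10, is listed at 0 in both blastocyst pools, and stood at 0.906 and 1.89 RPKM in fibroblasts. Later passages held 61.5 to 77.3 RPKM of FZD2 (median 70.3). Every stem cell library was far above every control, and every later passage above both P10 libraries. On the log2(RPKM + 1) scale, used for all differences here, FZD2 rose by 4.04 ± 0.29 (SE) in P10 stem cells relative to fibroblasts, as a change beyond that of the median gene (limma adjusted p = 7.45e-05). The median gene itself was 0.23 higher in P10 stem cells than in fibroblasts, and the adjusted p tests the fitted change before that shift is taken off. FZD2 passed the level filter of this comparison (at least 1 RPKM in at least 2 of the 6 libraries) only with the P10 libraries counted.

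FZD7, a close relative of FZD2 and a receptor known to be abundant in human pluripotent stem cells, stood at 42.2 RPKM in line B and 50.6 RPKM in line A at P10, 0.356 and 0.486 RPKM in blastocysts, and 1.97 and 0.446 RPKM in fibroblasts. It held 49.3 to 67.4 RPKM (median 54.3) later. The stem cell libraries lay close together and did not overlap either control. FZD7 rose by 4.28 ± 0.35 relative to fibroblasts (limma adjusted p = 0.000121) and by 3.63 ± 0.35 relative to blastocysts (limma adjusted p = 3.15e-05), beyond a median gene that was 1.43 higher in P10 stem cells than in blastocysts. FZD7 too passed the level filter only with the P10 libraries counted.

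FZD5, a receptor of another frizzled subfamily whose nearest relative is FZD8, stood at 40.4 RPKM in line B and 53.1 RPKM in line A at P10, 0.060 and 0.029 RPKM in blastocysts, and 0.642 and 0.265 RPKM in fibroblasts. The later passages ranged more widely than for FZD2 or FZD7, from 14.7 to 55.1 RPKM with a median of 24.7 RPKM. No stem cell library came near a control. FZD5 rose by 4.81 ± 0.24 relative to fibroblasts (limma adjusted p = 2.78e-05) and by 4.07 ± 0.24 relative to blastocysts (limma adjusted p = 1.1e-05). It passed the level filter through the P10 libraries alone. A higher value in P10 stem cells was fixed by that, so these p-values lend no support to the direction.

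FZD8 and FZD5 were highest and lowest in the same later libraries. FZD8 stood at 7.53 RPKM in line B and 8.64 RPKM in line A at P10, is listed at 0 in both blastocyst pools, and stood at 6.42 and 3.60 RPKM in fibroblasts. Both genes were highest among the later libraries in line A at P13, with 14.7 RPKM of FZD8 and 55.1 RPKM of FZD5, and lowest in line A at P23, with 2.17 and 14.7 RPKM. Later stem cells and fibroblasts overlapped for FZD8, and its difference of 0.40 ± 0.27 between P10 stem cells and fibroblasts did not pass the test (limma adjusted p = 0.0834), though it did without fibroblast line 1 (adjusted p = 0.0185) and with the values rescaled without the 2 most abundant features (adjusted p = 0.0325).

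**Figure D1:**
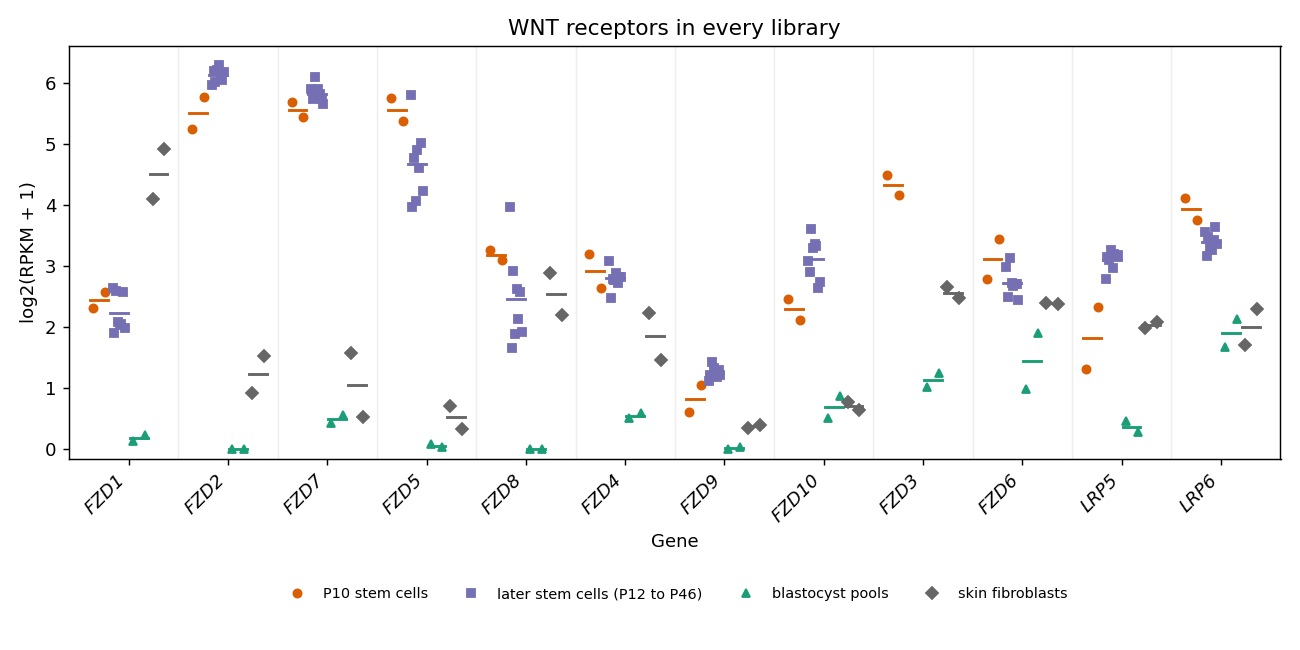
Frizzled receptors and the co-receptors LRP5 and LRP6 in every library, as log2(RPKM + 1) on the vertical axis, with P10 stem cells, later stem cells, blastocyst pools and skin fibroblasts side by side for each gene and short bars at the group means. FZD2, FZD5 and FZD7 lie high in all stem cell libraries and near the floor in both controls, whereas FZD1 is highest in fibroblasts; FZD3 has no later values.

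FZD1, the third member of the subfamily of FZD2 and FZD7, had the opposite order against fibroblasts. It stood at 5.00 RPKM in line B and 4.00 RPKM in line A at P10, 0.101 and 0.172 RPKM in blastocysts, and 16.1 and 29.2 RPKM in fibroblasts. Later passages held 2.76 to 5.28 RPKM (median 3.19). The 3 kinds of sample did not overlap, and FZD1 alone made up 45.97 and 69.13% of the FZD sum in fibroblast lines 1 and 2. FZD1 fell by 2.28 on the log2 scale in P10 stem cells relative to fibroblasts (SE 0.30, limma adjusted p = 0.00153) and rose by 0.84 ± 0.30 relative to blastocysts (limma adjusted p = 0.000458).

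FZD3 and FZD6 form the subfamily known for planar cell polarity, the orientation of cells within a sheet. FZD3 stood at 16.9 RPKM in line B and 21.4 RPKM in line A at P10, 1.03 and 1.38 RPKM in blastocysts, and 5.29 and 4.57 RPKM in fibroblasts, and was not analysed here at later passages. It rose by 1.53 ± 0.22 relative to fibroblasts (limma adjusted p = 0.000736) and by 1.76 ± 0.22 relative to blastocysts (limma adjusted p = 3.01e-05). FZD6 stood at 9.85 RPKM in line B and 5.95 RPKM in line A at P10, 0.995 and 2.77 RPKM in blastocysts, and 4.29 and 4.20 RPKM in fibroblasts, with 4.44 to 7.78 RPKM (median 5.55) later. FZD6 was the leading frizzled of both blastocyst pools among the 9 genes. Its difference from fibroblasts did not pass (limma adjusted p = 0.129), and its call against blastocysts, with a change of 0.23 ± 0.36 beyond the median gene (limma adjusted p = 0.00457), was lost under each of 3 other scalings of the libraries.

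FZD4, FZD9 and FZD10 form the remaining subfamily. FZD10 stood at 3.35 RPKM in line B and 4.53 RPKM in line A at P10 and 5.24 to 11.3 RPKM (median 8.18) later, against 0.428 and 0.835 RPKM in blastocysts and 0.714 and 0.556 RPKM in fibroblasts. FZD4, which besides WNT proteins binds the ligand norrin, stood at 5.22 RPKM in line B and 8.17 RPKM in line A at P10 and 4.60 to 7.52 RPKM (median 5.97) later, against 0.422 and 0.506 RPKM in blastocysts and 3.69 and 1.77 RPKM in fibroblasts. FZD9 was the lowest receptor of the stem cells, with 1.07 RPKM in line B and 0.532 RPKM in line A at P10 and 1.18 to 1.68 RPKM (median 1.33) later, against 0.029 RPKM and listed at 0 in blastocysts and 0.273 and 0.322 RPKM in fibroblasts. All 3 were higher in every stem cell library than in every control. FZD10 rose by 1.36 ± 0.21 relative to fibroblasts (limma adjusted p = 0.00104), a direction fixed by the level filter, which it passed through the P10 libraries alone. FZD4 rose by 0.84 ± 0.32 (limma adjusted p = 0.0266), a call lost when the libraries were scaled by median-of-ratios (adjusted p = 0.0637) or quantile-normalized (adjusted p = 0.113). The FZD4 call was also lost without line A at P10 (adjusted p = 0.129), without fibroblast line 2 (adjusted p = 0.114) and without either blastocyst pool (adjusted p = 0.0514 each). FZD9 did not pass the level filter in the comparison of P10 stem cells with controls.

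The co-receptors differed from each other. LRP6 stood at 12.5 RPKM in line B and 16.4 RPKM in line A at P10, 2.20 and 3.38 RPKM in blastocysts, and 2.29 and 3.92 RPKM in fibroblasts, with 8.01 to 11.5 RPKM (median 9.57) later. LRP5 stood at 4.01 RPKM in line B and 1.498 RPKM in line A at P10, 0.375 and 0.213 RPKM in blastocysts, and 2.97 and 3.22 RPKM in fibroblasts, with 5.91 to 8.58 RPKM (median 7.98) later. LRP6 separated all stem cells from both controls, while for LRP5 the P10 libraries lay on either side of the fibroblasts and the later passages above them. LRP6 rose by 1.70 ± 0.29 relative to fibroblasts (limma adjusted p = 0.00168). LRP5 did not pass against fibroblasts (-0.44 ± 0.33, limma adjusted p = 0.611), and was called lower without line B at P10 (adjusted p = 0.0438). Against blastocysts LRP6 (0.61 ± 0.29, limma adjusted p = 0.000643) and LRP5 (0.02 ± 0.33, limma adjusted p = 0.00547) were called, and both calls were lost with median-of-ratios or quantile scaling. The order of the co-receptors also differed: LRP6 held 75.76% of their sum in line B and 91.63% in line A at P10 and 50.26 to 64.74% later, against 85.43 and 94.08% in blastocysts, while in fibroblast line 1 LRP5 held 56.48% and in fibroblast line 2 LRP6 held 54.85%.

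SFRP1 and SFRP2 were the most abundant of all 39 genes in the P10 stem cells. SFRP1 stood at 144 RPKM in line B and 160 RPKM in line A at P10, 0.112 and 0.628 RPKM in blastocysts, and 3.81 and 3.60 RPKM in fibroblasts. It held 71.3 to 112 RPKM (median 96.3) later. The stem cells lay far above both controls, with both P10 libraries above every later one. SFRP1 rose by 4.79 ± 0.23 relative to fibroblasts (limma adjusted p = 2.68e-05) and by 5.40 ± 0.23 relative to blastocysts (limma adjusted p = 7.54e-06). SFRP1 was highest in line A at P10, the stem cell library with the lowest fibroblast and feeder sum. The part of that sum in the level was not tested.

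SFRP2 stood at 147 RPKM in line B and 85.2 RPKM in line A at P10, is listed at 0 in both blastocyst pools, and stood at 26.7 and 1.32 RPKM in fibroblast lines 1 and 2. It held 41.2 to 171 RPKM (median 72.1) later. All stem cell libraries exceeded both fibroblast lines, which differed widely from each other. SFRP2 rose by 3.58 ± 1.03 relative to fibroblasts (limma adjusted p = 0.0183), and the call was lost without line A at P10 (adjusted p = 0.0529) or without line B at P10 (adjusted p = 0.0845). It was highest in line B at P35 and line B at P10, where the fibroblast and feeder list summed to 792.2 and 542.5 RPKM. Line A at P35 had a sum of 774.5 RPKM with 81.7 RPKM of SFRP2. Line A at P10 had the lowest sum of the stem cells, 202.7 RPKM, with 85.2 RPKM of SFRP2. The part of that sum in the SFRP2 level was not tested.

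The other SFRP genes split. SFRP4 stood at 0.231 RPKM in line B and 0.182 RPKM in line A at P10, listed at 0 and 0.062 RPKM in blastocysts, and 32.0 and 13.9 RPKM in fibroblasts, with at most 0.433 RPKM later. It fell by 4.43 on the log2 scale relative to fibroblasts (SE 0.36, limma adjusted p = 0.000178) and was the largest member of its family in both fibroblast lines. SFRP4 passed the level filter through the fibroblast lines alone. A lower value in P10 stem cells was fixed by that, so this p-value lends no support to the direction. SFRP5, whose nearest relative is SFRP1, stood at 0.980 RPKM in line B and 0.355 RPKM in line A at P10 and at 0.787 to 2.16 RPKM (median 1.68) later, and is listed at 0 in both controls. SFRP1 and SFRP2 thus made up 98.15 to 99.78% of the SFRP sum in the stem cells, against 48.83 and 26.22% in fibroblasts. The ratio of SFRP1 to SFRP2 was 0.98 in line B and 1.879 in line A at P10, and across later passages it was above 1 in each library other than line B at P35, where it was 0.586.

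**Figure D2:**
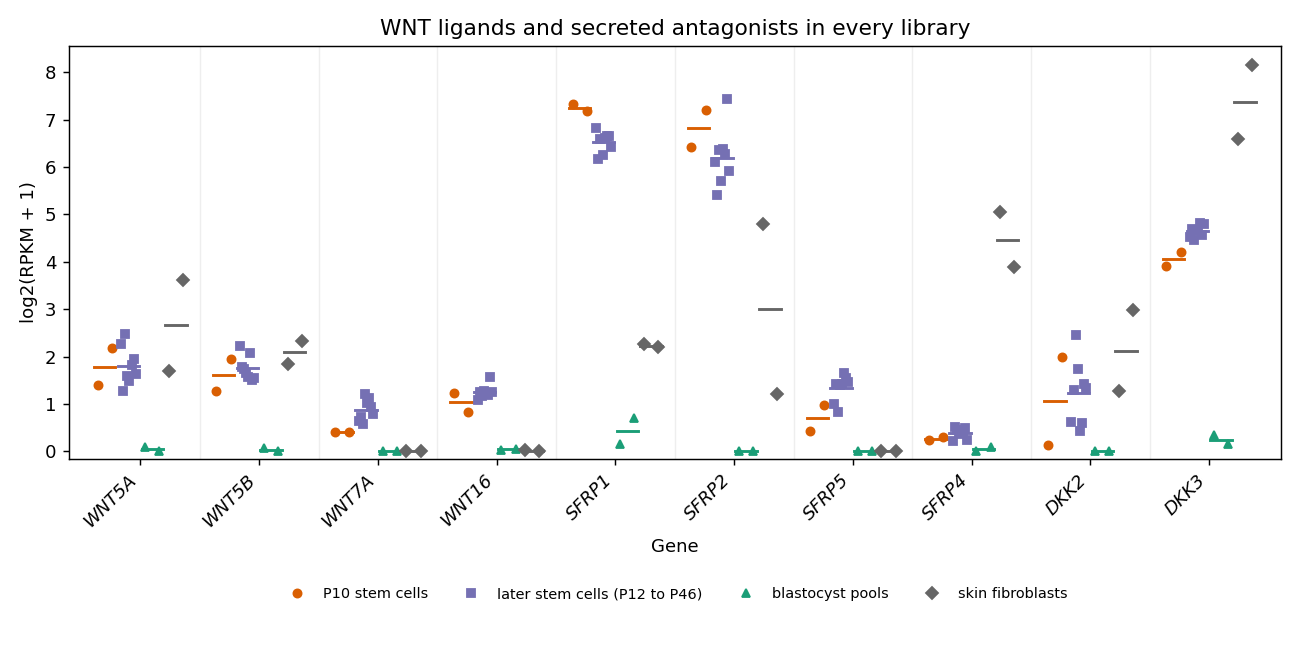
WNT ligands and secreted antagonists in every library, as log2(RPKM + 1) on the vertical axis, with the sample groups side by side for each gene and short bars at the group means. SFRP1 and SFRP2 lie highest in the stem cells, SFRP4 and DKK3 in fibroblasts, and WNT5A and WNT5B overlap between stem cells and fibroblasts.

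Of the Dickkopf genes, DKK3, a divergent member that is not an established LRP antagonist, was the abundant one. It stood at 17.4 RPKM in line B and 13.97 RPKM in line A at P10, 0.265 and 0.119 RPKM in blastocysts, and 95.9 and 283 RPKM in fibroblasts, with 21.2 to 27.3 RPKM (median 24.3) later. Blastocysts, stem cells and fibroblasts formed 3 separate levels. DKK3 fell by 3.55 on the log2 scale in P10 stem cells relative to fibroblasts (SE 0.47, limma adjusted p = 0.00126) and rose by 2.37 ± 0.47 relative to blastocysts (limma adjusted p = 0.000316). DKK2, a ligand of LRP5 and LRP6, stood at 2.98 RPKM in line B and 0.102 RPKM in line A at P10, is listed at 0 in both blastocyst pools, and stood at 1.41 and 6.89 RPKM in fibroblasts, with 0.345 to 4.53 RPKM (median 1.49) later. Stem cells and fibroblasts overlapped, and DKK2 did not pass against fibroblasts (limma adjusted p = 0.247). Of the stem cells, line A at P10 had the lowest DKK2 and the lowest fibroblast and feeder sum, whose part in the level was not tested.

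The comparison of P10 stem cells with fibroblasts asks how the blastocyst-derived cells differ from a somatic cell type. Of the 39 genes 18 passed the level filter (at least 1 RPKM in at least 2 of the 6 libraries), and a gene that passed it only through the group where it is high had to differ. FZD5 and FZD10 stayed under 1 RPKM in all 4 control libraries and passed the filter through the P10 libraries alone. A higher value in P10 stem cells was fixed by that in both comparisons with controls. FZD2 and FZD7 reached 1 RPKM in 1 fibroblast line only and needed at least 1 P10 library to pass. For these the filter favoured a higher value in P10 stem cells but did not fix it against fibroblasts. Both stayed under 1 RPKM in the pools, so at least 1 P10 library had to lie above the pools. SFRP4 stayed under 1 RPKM in the P10 and blastocyst libraries and passed through the fibroblast lines alone. A lower value than in fibroblasts was fixed by that for both. DKK2 would not have passed without the fibroblasts either. In P10 stem cells 9 were called higher (SFRP1, FZD5, FZD7, FZD2, SFRP2, LRP6, FZD3, FZD10 and FZD4) and 3 lower (SFRP4, DKK3 and FZD1), where 35.4% of all 11761 genes tested were called higher and 21.9% lower (27.3% and 25.3% under median-of-ratios scaling, with 8 and 3 of the 18). The median of the 18 changes was 0.67 beyond the median gene. All 3 other scalings left 8 higher and 3 lower calls standing, FZD4 being the exception. Apart from FZD1, every frizzled tested and called was higher in stem cells, and no ligand passed the test: WNT5A differed by -1.10 ± 0.60 (limma adjusted p = 0.252) and WNT5B by -0.72 ± 0.28 (limma adjusted p = 0.182). WNT5B was called lower under quantile normalization (adjusted p = 0.0275), which gave 4 lower calls in all. Without fibroblast line 1, the line with less WNT5A, that gene was called lower (adjusted p = 0.00963).

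Blastocysts are the tissue the stem cells were derived from, and hold trophectoderm and hypoblast besides the epiblast. A list of 10 trophectoderm markers summed to 243.2 RPKM in line B and 179.7 RPKM in line A at P10, against 971.1 and 675.9 RPKM in the blastocyst pools. Most of the P10 sums came from keratins: KRT8 (150 and 115 RPKM), KRT18 (37.9 and 41.9 RPKM) and KRT19 (49.6 and 16.9 RPKM). CDX2 is listed at 0 in both P10 libraries, against 13.8 and 15.9 RPKM in the pools. The 6 hypoblast markers summed to 28.1 RPKM in line B and 41.7 RPKM in line A at P10, against 15.9 and 18.8 RPKM in the pools. APOA1 alone gave 27.9 and 41.1 RPKM of the P10 sums, against 0.058 and 0.284 RPKM in the pools. GATA6 ran the other way, with 0.095 RPKM in line B and 0.157 RPKM in line A, against 13.8 and 16.5 RPKM in the pools. HNF4A and GATA4 were also lower at P10, FOXA2 was higher, and SOX17 is listed at 0 in these libraries. The part of the other cells was not tested. Of the 18 genes tested, 16 were called higher in P10 stem cells than in blastocysts and 0 lower, where 73% of all genes tested were called higher and 7.33% lower. With median-of-ratios scaling 11 were called higher and 0 lower, beside 36.5% higher and 28.1% lower of all genes. The fitted median was 2.32 for the 18 genes and 1.43 for all, with genes listed at 0 entering at a value that depends on the pseudocount. These 10 kept the call under each scaling: SFRP1, SFRP2, FZD2, FZD5, FZD7, FZD3, FZD8, FZD1, DKK3 and WNT5B. Of the 16 called higher, 4 (FZD2, FZD5, FZD7 and FZD10) would not have passed the level filter without the P10 libraries. For FZD5 and FZD10 the filter fixed the direction. For FZD2 and FZD7 at least 1 P10 library had to lie above the pools. SFRP2 (limma adjusted p = 0.000812), FZD2 (limma adjusted p = 1.52e-05) and FZD8 (limma adjusted p = 6.34e-05) are listed at 0 in both pools, so no fold is given. The call of WNT5B came with a change of 0.14 ± 0.28 beyond the median gene (limma adjusted p = 0.00178). WNT5A (0.32 ± 0.60, limma adjusted p = 0.031) and FZD10 (0.17 ± 0.21, limma adjusted p = 0.000461) were called as deposited but not under each other scaling. The WNT5A call was also lost without line B at P10 (adjusted p = 0.142) and without blastocyst pool 1 (adjusted p = 0.0983) or 2 (adjusted p = 0.11). The fitted change of FZD10 was -0.01 under quantile normalization.

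**Figure D3:**
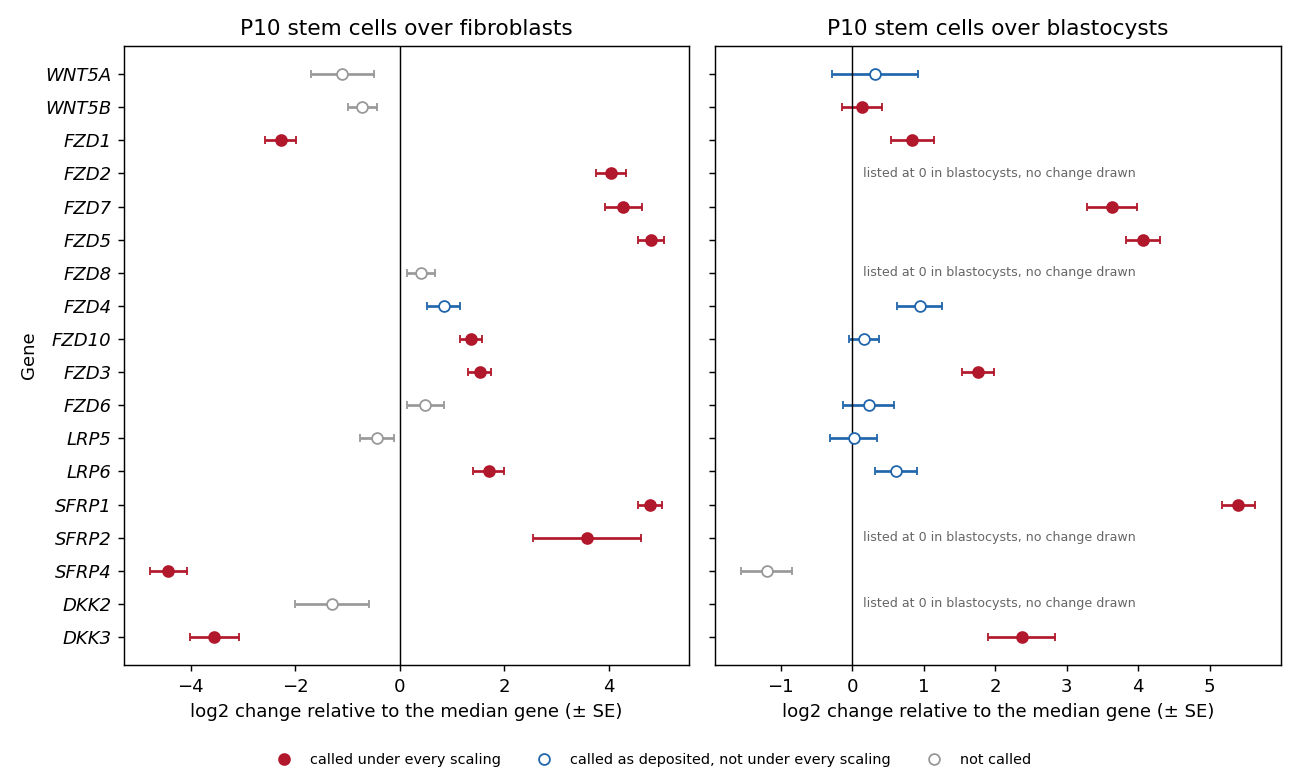
Changes of the tested genes in P10 stem cells relative to fibroblasts and to blastocysts, as log2 change beyond the median gene with bars of 1 SE. Red filled points were called under every scaling, blue open points as deposited but not under every scaling, and grey points were not called. The receptors FZD2, FZD5 and FZD7 and the antagonists SFRP1 and SFRP2 stand at the high end of the fibroblast panel, and genes listed at 0 in both blastocyst pools are named without a change in the blastocyst panel.

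The controls differed from each other as well. In blastocysts 13 of the 18 were called lower than in fibroblasts and 0 higher, where 63.4% of all genes were called lower and 11% higher. Median-of-ratios scaling gave 11 lower and 2 higher, beside 36.4% lower and 30.1% higher of all genes. DKK3 fell by 5.97 (SE 0.47, limma adjusted p = 2.89e-05), SFRP4 by 3.27 (SE 0.36, limma adjusted p = 6.39e-05) and FZD1 by 3.17 (SE 0.30, limma adjusted p = 3.6e-05) on the log2 scale beyond the median gene, which was 1.15 lower in blastocysts. The direction of SFRP4 was fixed by the level filter, which it passed through the fibroblast lines alone. A lower call held for 9 under each scaling, SFRP4 among them. LRP6 and FZD10 were called higher in blastocysts under each of the 3 other scalings and not in the values as deposited (limma adjusted p = 0.777 and 0.972).

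At later passages FZD2 and FZD7 stayed between 49.3 and 77.3 RPKM in both lines. No slope over passage passed the limma test (0 of 20 genes, with 0 at an unadjusted p under 0.05), where 0% of the 10726 genes tested were called and 263 had an unadjusted p under 0.05. Fitted slopes ran from -0.29 (FZD8, SE 0.16) to 0.37 (DKK2, SE 0.17) log2 units per 10 passages, each with an adjusted p of 0.99. FZD5 had a slope of -0.26 (SE 0.13). With 4 later libraries a line, changes of this size cannot be separated from the spread between passages.

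Line B and line A also gave 0 called genes of 20, where 0.0186% of all genes (2 genes) were called and 1202 had an unadjusted p under 0.05. The 2 with an unadjusted p under 0.05 were SFRP5 (0.41 ± 0.14 higher in line B, limma adjusted p = 0.431) and SFRP2 (0.66 ± 0.28, limma adjusted p = 0.44). SFRP5 stood at 1.66, 2.16, 1.95 and 1.75 RPKM in line B at P12, P24, P35 and P46, and at 1.02, 1.69, 0.787 and 1.66 RPKM in line A at P13, P23, P35 and P45, so the lines overlapped. SFRP2 stood at 82.3, 76.3, 171 and 59.5 RPKM in line B and at 67.9, 41.2, 81.7 and 51.5 RPKM in line A at the same passages, and overlapped too. No difference of slopes between the lines was called either (0 of 20, with 0% of all genes called). FZD2 was the 1 gene of the 20 with an unadjusted limma p under 0.05 there, beside 177 of all genes.

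Several genes went up and down together along line A. Values at P13 and P35 exceeded those at P23 and P45 for FZD5 (55.1 and 26.2 against 14.7 and 15.8 RPKM), FZD8 (14.7 and 6.59 against 2.17 and 2.70 RPKM), WNT5A (3.85 and 4.56 against 1.41 and 2.01 RPKM) and FZD1 (5.28 and 5.05 against 2.76 and 3.25 RPKM). SFRP1 (112 and 95.8 against 71.3 and 75.2 RPKM) and SFRP2 (67.9 and 81.7 against 41.2 and 51.5 RPKM) had the same order. FZD4, FZD6, FZD7 and LRP6 had it too. FZD2 (61.5 and 63.9 against 72.5 and 73.3 RPKM) and LRP5 (5.90 and 7.59 against 7.93 and 8.58 RPKM) had the opposite order. So did DKK3, SFRP5, WNT16 and WNT7A. Outside these families, APC2, CELSR2, LGR4, TLE4 and BCL9 had the first order, and PORCN, PRICKLE1 and DAAM1 the opposite one. The pattern was thus not confined to the WNT, FZD and SFRP genes, and its share among all genes was not counted. The fibroblast and feeder sum was 583.7 and 774.5 against 502.4 and 564.3 RPKM in these libraries. The sum of the 10 trophectoderm markers ran the other way, with 266.7 and 375.1 against 830.1 and 703.3 RPKM. Keratins made up most of that sum, with KRT8 at 154 and 217 against 479 and 413 RPKM and KRT18 at 80.9 and 123 against 259 and 219 RPKM. CDX2 is listed at 0 in each of these libraries. The part of either list was not tested. The pattern was chosen after its values were seen, so no test is given.

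**Figure D4:**
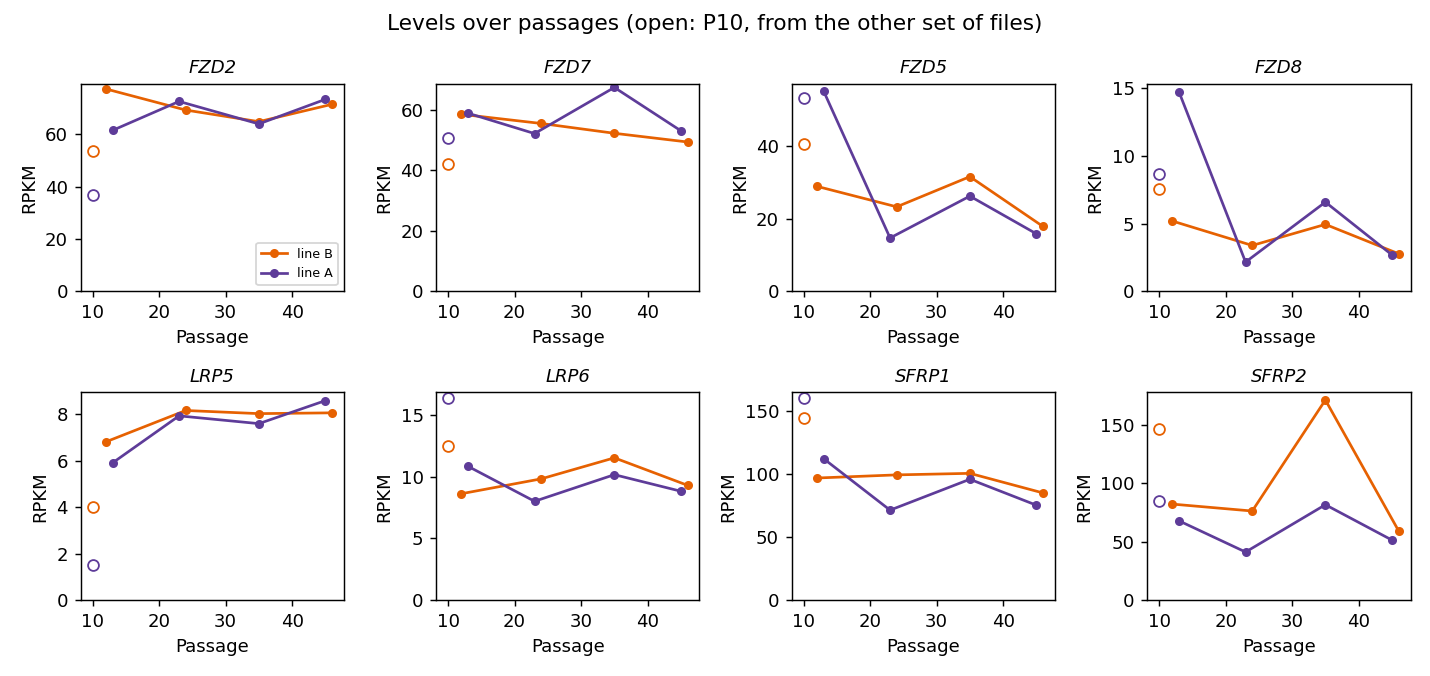
RPKM of 8 genes by passage number in line B and line A, with P10 shown as open points because those libraries stand in the other file set. FZD2 and FZD7 stay within 49.3 to 77.3 RPKM at later passages, FZD5, FZD8, SFRP1 and SFRP2 go up and down along the passages, LRP5 lies lower at P10 than later and LRP6 higher.

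P10 differed from later passages for some genes, but the P10 files share their feature list with the controls and not with the later files, so P10 and the file set cannot be told apart. Against the value predicted for passage 10 from the later libraries, 0 of 20 genes were called higher and 4 lower at P10, where 2.3% of all genes were called higher and 13.6% lower. Median-of-ratios scaling gave 2 higher and 1 lower, beside 6.47% higher and 7.79% lower of all genes. LRP5 fell by 1.01 on the log2 scale at P10 beyond the median gene (SE 0.23, limma adjusted p = 0.0126), kept the call under each scaling, and lost it without line A at P10 (adjusted p = 0.0579). FZD10 (-0.82 ± 0.28, limma adjusted p = 0.0498), FZD2 (-0.51 ± 0.15, limma adjusted p = 0.0226) and DKK3 (-0.47 ± 0.12, limma adjusted p = 0.0144) were called lower as deposited and under none of the other scalings. The calls of FZD2, DKK3 and FZD10 were also lost without line A at P10 (adjusted p = 0.164, 0.0938 and 0.141) or without line B at P12 (adjusted p = 0.103, 0.0507 and 0.196). FZD10 lost it as well without line B at P10 (adjusted p = 0.166), line A at P45 (adjusted p = 0.0653), line B at P24 (adjusted p = 0.0954) or line B at P46 (adjusted p = 0.0874). SFRP1 (0.69 ± 0.18, limma adjusted p = 0.054) and LRP6 (0.65 ± 0.18, limma adjusted p = 0.0694) were not called as deposited and were called higher at P10 under each of the 3 other scalings. SFRP1 was also called without line A at P13 (adjusted p = 0.0359) or at P23 (adjusted p = 0.0443).

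The rest of the pathway was read from 61 further genes in 8 lists. In P10 stem cells relative to fibroblasts 29 of the 43 that passed the level filter were called higher and 7 lower, beside the 35.4% of all genes tested called higher and 21.9% called lower, with a median change of 1.07 beyond the median gene. Of these calls, 22 higher and 7 lower ones held in all 3 other scalings. Of the 29 called higher, 10 stayed under 1 RPKM in all 4 control libraries and passed the filter through the P10 libraries alone, so their direction was fixed by it: VANGL2, CELSR1, CELSR2, PRICKLE2, APC2, FRZB, SOSTDC1, DRAXIN, APCDD1 and RSPO1. In the secretion list PORCN, the enzyme that attaches the lipid WNT proteins need, rose by 1.36 ± 0.19 (limma adjusted p = 0.000628), while WLS fell by 2.85 (SE 0.76, limma adjusted p = 0.0238), a call lost without fibroblast line 1 (adjusted p = 0.0929) or 2 (adjusted p = 0.0622). Of 3 alternative WNT receptors tested ROR1 rose by 1.52 ± 0.32 (limma adjusted p = 0.00388) and ROR2, a receptor of WNT5A, fell by 1.89 (SE 0.25, limma adjusted p = 0.00162). Of the 7 other extracellular inhibitors tested 5 were higher, among them FRZB (2.05 ± 0.14, limma adjusted p = 6.08e-05), a relative of the SFRP genes that the symbol rule does not take. Of those 5, 4 (FRZB, SOSTDC1, DRAXIN and APCDD1) are among the 10 whose direction the filter fixed. The 2 lower ones were IGFBP4, an insulin-like growth factor binding protein that also binds FZD8 and LRP6 (-4.33 ± 0.21, limma adjusted p = 3.44e-05), and KREMEN1, a partner of Dickkopf proteins (-2.99 ± 0.31, limma adjusted p = 0.000498). The next list joined the destruction complex, which marks beta-catenin for degradation and holds the AXIN that IWR1 stabilises, with the tankyrases that IWR1 inhibits. Of its 8 genes tested 6 were higher and 0 lower, with AXIN1 at 1.23 ± 0.22 (limma adjusted p = 0.00162) and APC2 at 1.86 ± 0.20 (limma adjusted p = 0.000285).

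Farther inside the cell, DVL2, a scaffold that receptors recruit, rose by 1.75 ± 0.22 relative to fibroblasts (limma adjusted p = 0.000479), and 2 of 3 Dishevelled genes were called higher, of which DVL3 lost the call with median-of-ratios scaling (adjusted p = 0.138), without fibroblast line 1 (adjusted p = 0.114), and without line A (adjusted p = 0.126) or line B (adjusted p = 0.0561) at P10. Of 10 nuclear partners of beta-catenin tested 8 were higher and 1 lower, of which 3 and 1 held under each scaling, among them the co-repressor TLE4 (3.09 ± 0.17, limma adjusted p = 3.44e-05), with TLE2 the lower one (-1.82 ± 0.23, limma adjusted p = 0.00132). Beside the counts of these lists, 35.4% of all genes tested were called higher and 21.9% lower, or 27.3% and 25.3% under median-of-ratios scaling. In the planar cell polarity list 5 of 7 were higher and 1 lower, of which 4 and 1 held under each scaling. Of the 5 higher ones, 4 (VANGL2, CELSR1, CELSR2 and PRICKLE2) passed the filter through the P10 libraries alone, which fixed their direction. VANGL2 (3.59 ± 0.18, limma adjusted p = 2.63e-05) and CELSR2 (2.97 ± 0.16, limma adjusted p = 3.2e-05), core membrane proteins of that pathway, were among the higher ones, and PRICKLE1 was the lower one (-2.27 ± 0.23, limma adjusted p = 0.00052). In the R-spondin list, whose ligands strengthen WNT signals by sparing receptors from degradation, 3 of 9 genes passed the filter, with RSPO1 higher (1.19 ± 0.16, limma adjusted p = 0.000564) and RSPO3 lower (-2.96 ± 0.81, limma adjusted p = 0.0267). The direction of RSPO1 was likewise fixed by the filter. The RSPO3 call was lost without line A (adjusted p = 0.0837) or line B (adjusted p = 0.0971) at P10.

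Relative to blastocysts, 33 of the 43 were called higher in P10 stem cells and 1 lower, of which 23 and 1 held under each scaling, beside 73% of all genes called higher and 7.33% lower. The 10 genes that passed the filter through the P10 libraries alone are among the 33. All 3 Dishevelled genes and all 3 alternative receptors tested were higher under every scaling, with DVL2 at 2.48 ± 0.22 (limma adjusted p = 1.77e-05) and PTK7, a receptor-like partner of WNT proteins, at 2.47 ± 0.38 (limma adjusted p = 0.000119). IGFBP4 rose by 2.69 ± 0.21 (limma adjusted p = 1.48e-05), AXIN1 by 2.34 ± 0.22 (limma adjusted p = 1.89e-05), VANGL2 by 2.39 ± 0.18 (limma adjusted p = 1.16e-05) and LGR4, an R-spondin receptor, by 1.28 ± 0.32 (limma adjusted p = 0.000272). Neither secretion gene was called: PORCN stood at 8.48 RPKM in line B and 9.46 RPKM in line A at P10, against 10.5 and 11.8 RPKM in blastocysts and 2.18 and 2.44 RPKM in fibroblasts. Within the stem cells 0 of 47 pathway genes had a called slope or line difference, where 0% and 0.0186% of all genes were called. At P10 relative to later passages 0 were higher and 6 lower, beside 2.3% higher and 13.6% lower of all genes, and GSK3A, a kinase of the destruction complex (-0.42 ± 0.09, limma adjusted p = 0.00514), kept the call under every scaling.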

How the data were processed

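The authors deposited 1 table of RPKM values per library, without read counts, so depth, counting intervals and detection limits are unknown. Genome build UMD3.1 and edgeR are named per the submitters' processing notes, with roles not given in the sources used here. The 6 P10 and control files share 1 feature list (26 unreadable names, 25 dates and 21 blank values left out). The 8 later files share another, in which 26 dates were restored in 5 files. Of 21008 shared names, 2568 numbered copies were left out and 18440 used. All 39 symbols matched RefSeq gene symbols; no sequence or coordinate was used.

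Tests ran on log2(RPKM + 1), a scale that shrinks changes of low genes, with limma 3.58.1 in R 4.3.3 (empirical Bayes with trend, two-sided, Benjamini-Hochberg over all genes tested, call at adjusted p under 0.05). A gene had to reach 1 RPKM in 2 or more libraries of the fit: 11761 did in the fit of P10, blastocysts and fibroblasts as 3 groups, and 10726 in the fit of 10 stem cell libraries on line, passage and P10. Both comparisons of P10 cells with controls use the same P10 libraries. Changes are given beyond the median gene. The other scalings were median-of-ratios, quantile normalization, and rescaling without the 2 most abundant features. Pseudocounts, filters, left-out libraries and a replicate block were also tried; where that leaves a group with 1 library, it is assumed to vary like the other groups. The script was tested on simulated data. Every listed gene is accounted for, with values where it reached 1 RPKM in at least 2 libraries; up to 4 pathway genes per list and comparison were named by smallest adjusted p. The genes and lists were chosen with earlier results of these data known. Python 3.11.15, pandas 2.3.3 and numpy 2.4.6 read the files.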

Additional observations from a re-analysis of the deposited data

Results flagged for a closer look

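In 40 groups of 4 later libraries (1 gene in 1 line), 4 had a library farther from the others than Dixon's 95% limit for 4 values, where chance gives about 1 in 20 groups; all 4 are in line B. FZD1 stood at 4.992 RPKM at P35, against 2.973 to 3.14 RPKM in the other line B passages. FZD6 stood at 4.436 RPKM at P46, against 5.378 to 5.563 RPKM. LRP5 stood at 6.81 RPKM at P12, against 8.023 to 8.157 RPKM. WNT5B stood at 3.226 RPKM at P24, against 1.836 to 1.989 RPKM.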

How the results depend on the processing

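For 99 gene changes called as deposited, 1751 alternatives were tried. Of these, 1625 kept direction and side of the threshold, 123 lost the call and 3 reversed. Changes that were called only in an alternative are not in this count. The reversed ones were FZD10 in P10 stem cells relative to blastocysts (-0.01 under quantile normalization), FZD3 in blastocysts relative to fibroblasts (0.03 under quantile normalization) and CSNK1A1 in P10 stem cells relative to blastocysts (-0.21 under median-of-ratios scaling). The fitted median gene moved with the scaling: P10 minus blastocysts was 1.43 as deposited, 0.18 under median-of-ratios and 0.09 under quantile normalization. The genes called higher against blastocysts numbered 16 as deposited and 10 under quantile normalization. In blastocysts relative to fibroblasts, higher calls were 0 as deposited and 2 under each other scaling. At P10 relative to later passages, higher calls were 0 as deposited, 2 under each other scaling and without the passage term, and 1 without line A at P13 and P35, and lower calls were 4 as deposited, 1 under each other scaling, 6 without the passage term and 5 without line A at P13 and P35. The causes were not tested. Leaving out 1 library at a time gave 5 to 10 higher and 2 to 4 lower against fibroblasts (5 when the P10 library of line A was left out, 6 when that of line B was; FZD5 and FZD10 then fall under the level filter in both cases), 13 to 16 higher and 0 lower against blastocysts, 0 higher and 11 to 14 lower in blastocysts relative to fibroblasts, and 0 to 1 higher and 0 to 4 lower at P10, with 0 lower when line A at P10 was left out and 1 when line B at P12 was. Slope, line and difference of slopes stayed at 0. The labels do not pair the groups; with their letters as a replicate block, the counts were 9 higher and 3 lower, 16 and 0, and 0 and 14 for the 3 comparisons, and without the line term (no replicate block) 0 higher and 3 lower at P10. Same-letter deviations had correlations of -0.079, -0.099 and 0.187 over 11761 genes (genes are no independent replicates). With 2 libraries a group and RPKM only, genes near 1 RPKM are the least certain.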

Other observations

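AXIN2, a gene that beta-catenin signalling is known to switch on, and LEF1, a DNA-binding partner of beta-catenin, were looked up after the values of the pathway lists were seen. AXIN2 stood at 1.23 RPKM in line B and 0.816 RPKM in line A at P10 and at 1.40 to 2.57 RPKM later, against 0.885 and 0.562 RPKM in blastocysts and 0.029 and 0.014 RPKM in fibroblasts. LEF1 stood at 0.812 RPKM in line B and 1.17 RPKM in line A at P10, against 0.628 and 0.188 RPKM in blastocysts and 0.149 and 0.311 RPKM in fibroblasts. Its later stem cell values ran from 0.313 to 0.977 RPKM and overlapped the blastocyst pools. Neither passed the level filter in the comparison with controls, so no test is given.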
